A study of Mus musculus with 96 samples.

Results

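Accessible chromatin sites that lie inside exons or around the end of a gene, away from any transcription start, were followed in the hepatocytes of fasting mice. The set was taken from the hepatocyte peak table of the authors. A peak belonged to it when its annotation was an exon, a 3' UTR or a transcription termination site (TTS), when it lay more than 1000 bp from the nearest annotated transcription start site (TSS), and when it overlapped no peak of the macrophage table by 1 bp or more. Of 46832 hepatocyte peaks, 2193 had 1 of the 3 annotations, 1804 of these lay far enough from a TSS, and 213 of those overlapped a macrophage peak. This left 1591 member peaks, 3.4% of the table: 589 in exons, 384 in 3' UTRs and 618 at a TTS. The rule used annotation and position and no measured fasting effect. Just inside the distance limit stood a TTS peak of AB124611 at 1003 bp with a mean level of 45.6 normalized reads and an Angptl4 exon peak at 1005 bp with 21.7. Just outside stood a TTS peak of Tm7sf2 at 968 bp with 42.6 and a TTS peak of Mir122 at 983 bp with 95.0.

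Most open chromatin sites outside promoters lie in introns or between genes, where transcription factors bind enhancers. Sites over exons and beyond the polyadenylation signal are a smaller class. They can be enhancers that happen to fall within coding sequence, enhancers of a neighbouring gene, or chromatin opened by polymerase running past the end of a heavily transcribed gene. In the liver, fasting lowers insulin and raises glucagon and glucocorticoids, and hepatocytes turn from making fat and sterols to burning fatty acids, making ketone bodies and releasing glucose.

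Accessibility was measured by ATAC-seq, in which a transposase cuts open DNA and the number of sequenced fragments in a 200 bp peak gives its openness. Nuclei carried a tag in hepatocytes of HEP-INTACT mice and were captured on beads. The groups were female mice fasted for 3, 8, 16 or 24 h from ZT12, the onset of the active phase, and female mice fed ad libitum and killed at the same times, ZT15, ZT20, ZT4 and ZT12. Each of the 8 groups held 4 mice, all carrying the tag, and the labels used here give neither strain nor age nor the driver of the tag. P-values measure the spread between these mice. Each library held between 2458156 and 6098645 reads in listed peaks (median 4364781), of which 62733 to 166590 lay in members. Values are the authors' normalized reads per peak. A peak is called opened where fasted mice had more reads and closed where they had fewer, at an adjusted p under 0.05 in limma with Benjamini-Hochberg adjustment over all 46827 tested hepatocyte peaks. Log2 fold changes (fasted over fed, ± SE) are of the value plus 2, which makes the changes of low peaks look smaller than they are.

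The capture could be checked at promoters. Of 10 hepatocyte marker genes, 9 had a listed promoter peak (Alb, Apoa1, Asgr1, Cps1, Cyp2e1, Fgb, Hnf4a, Serpina1a and Trf, median level 122, all but Ttr). None of 11 Kupffer cell and macrophage markers, 10 sinusoidal endothelial markers or 9 lymphocyte markers had a promoter peak in the hepatocyte table. Of 10 stellate cell and fibroblast markers, 1 had a promoter peak, Reln, which held 51.5 to 68.7 normalized reads in mice fasted for 3 h and 10.3 to 24.7 in fed mice, with overlap at the later times. Of 8 cholangiocyte markers, 2 did, Sox9 among them, and 6 did not. Their sum was 70.7 to 117.0 in mice fasted for 24 h and 53.1 to 69.2 in fed mice, with overlap at the earlier times. Summed over the hepatocyte marker promoters, fasted and fed mice overlapped at 3, 8 and 16 h, while at 24 h the sum was 1750 to 2050 in fasted and 1450 to 1660 in fed mice. The part of these shifts in the results was not tested. As nuclei were pooled within a mouse, a site open in fewer hepatocytes and a site less open in each hepatocyte cannot be told apart.

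Members were sites of ordinary strength. Their median level was 43.5 normalized reads over all 32 mice, with a range of 9.38 to 280.0, against 44.8 for hepatocyte-only intronic peaks, 45.5 for hepatocyte-only intergenic peaks (both over 1000 bp from a TSS) and 52.7 for all tested peaks. The highest were a 3' UTR peak of Hjurp at 280.0, a TTS peak of Il17rb at 274.0 and a TTS peak of Pex6 beside Gnmt, the glycine N-methyltransferase of hepatocytes, at 257.0. Where the annotated gene end could be placed (1211 members), 388 of 462 TTS peaks (84.0%) were centred past it, by a median of 427 bp over the TTS peaks. Of the 589 exon peaks, 23 lay in the first exon, 101 in the second, 131 in the last and 445 in neither the first nor the last. The median distance to the nearest TSS was 8870 bp. In 699 of 1591 members (43.9%) the nearest TSS belonged to a gene other than the one whose exon, 3' UTR or end the peak occupied, which was so for 32.8% of exon, 56.0% of 3' UTR and 47.1% of TTS members. The gene that is occupied is called the host gene here. The hosts were 1247 genes, 254 of which held 2 or more members, and these held 598 members together.

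**Figure D1:**
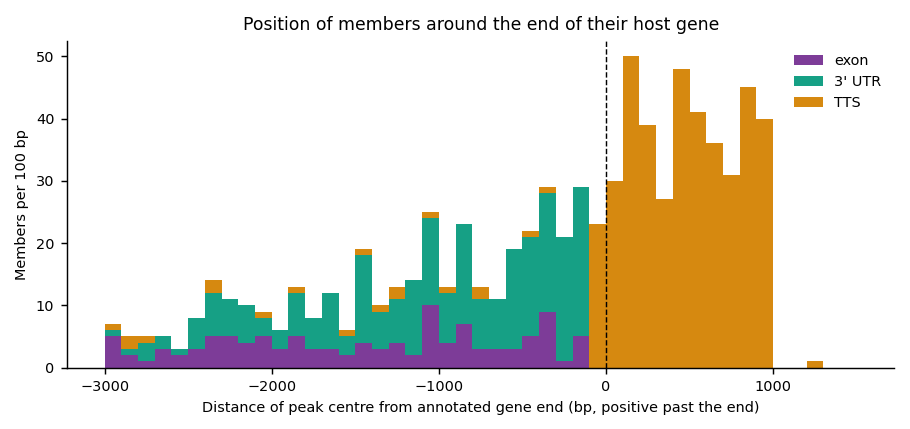
Distance in bp of member peak centres from the annotated end of the host gene (positive past the end), in bins of 100 bp, stacked by annotation, for the 794 of 1211 placed members within 3000 bp before and 1500 bp past the end. TTS members fill the stretch past the end and 3' UTR and exon members the stretch before it.

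The DNA of the member peaks was not used here, but the start of several host genes could be read, and these starts serve in a later comparison of gene ends with promoters. Of 77 host genes of named members with a promoter peak, 57 had a promoter window in the RefSeq table (GRCm38.p6, 250 bases before to 50 after the start), and 16 of these held a match to 1 of 16 searched motifs inside the promoter peak. Shown are 30 bases around 5 such matches, at hosts whose end or exon moved after 8 h of fasting while the promoter moved less (Alb, Angptl8, G6pc, Hlf) or opened too (Mt2). Capitals mark the match, on the strand of the gene.
Alb, chr5:90460765-90460794, plus strand, 94 bases before the start: tcaaacaacttTTTGGCAAagatggtatga
Mt2, chr8:94172595-94172624, plus strand, 12 bases before the start: aagagggccgcTTGCAGAAttcgggtcgtg
Angptl8, chr9:21835399-21835428, plus strand, 100 bases before the start: ccgccaggcccTTGTGCAAccatggccggt
G6pc, chr11:101367596-101367625, plus strand, 108 bases before the start: gatgcacctttgATCAATagattttagaca
Hlf, chr11:90390908-90390937, minus strand, 9 bases before the start: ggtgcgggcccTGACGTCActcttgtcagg
The first 3 match a spaced C/EBP site, searched as TTGCNNAA on both strands and held by 10.8% of 27025 promoter windows. The G6pc window matches an HNF6 site, ATCAAT, held by 7.76%, and the Hlf window a CREB site, TGACGTCA, held by 1.88%. A match is a string of letters and no measured site of binding.

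Fasting moved members at every time. More of them closed than opened at 3, 8 and 16 h, and at 24 h the numbers were close. At 3 h, 180 members opened (11.3%) and 301 closed (18.9%) of 1589 tested, where 11.3% of all tested peaks opened and 10.3% closed. At 8 h, 293 opened (18.4%) and 390 closed (24.5%), where 20.3% of all peaks opened and 13.7% closed. At 16 h, 262 opened (16.5%) and 332 closed (20.9%), against 19.0% and 12.8% of all peaks. A fit of only the 2 groups compared, with their own spread, called 148 opened and 216 closed at 16 h. At 24 h, 269 opened (16.9%) and 278 closed (17.5%), against 25.3% and 11.4% of all peaks. The balance at 24 h turned to more openings, 222 against 179 closings, when a mean of at least 30 was required, 333 against 318 when only the 2 groups compared were fitted, and 229 against 226 without fasted mouse 2. Thus the opened share stood at or under that of all peaks and the closed share above it. Opened shares at the 4 times were 12.2%, 20.3%, 17.9% and 15.6% for hepatocyte-only intronic peaks. For hepatocyte-only intergenic peaks they were 14.3%, 22.5%, 19.4% and 16.3%. At 24 h both stood under the share of members. Hepatocyte-only intronic peaks had closed shares of 14.1%, 20%, 18.2% and 16.2% and hepatocyte-only intergenic peaks of 13.4%, 19.3%, 20.2% and 18.3% at the 4 times, so that intergenic peaks had a higher closed share than members at 24 h. The 2 members that were not tested, both in Car3, fell under the minimum mean of 10 normalized reads.

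The median member had a log2 fold change of -0.07, -0.04, -0.05 and 0.03 at 3, 8, 16 and 24 h, and the median of all tested peaks was -0.01, 0.08, 0.10 and 0.16. These medians and the balance of calls depend on the scaling of the libraries. With edgeR's scaling, the median of all tested peaks at 24 h was 0.03, and that of the members was -0.11. At 24 h, opened members were 49.2% of called members as deposited, 36.8% after median centring, 38.4% after quantile normalization, 27.6% in edgeR and 26.3% in DESeq2, and at 16 h 44.1%, 35.1%, 37.0%, 32.6% and 32.1% in the same order. Among all tested peaks, opened peaks were 69.1%, 55.2%, 47.5%, 41.2% and 39.1% of called peaks at 24 h. In each of these 5 scalings and at each time, a larger share of members closed than of all tested peaks. Members also took a smaller share of the reads in peaks in fasted mice. The share was 2.61 to 2.73% in mice fasted for 3 h and 2.81 to 2.83% in fed mice, 2.49 to 2.59% and 2.70 to 2.77% at 8 h, 2.36 to 2.61% and 2.56 to 2.79% at 16 h, and 2.47 to 2.67% and 2.72 to 2.78% at 24 h, with overlap of the groups at 16 h only. A share of reads depends also on the reads in all other peaks. It was not computed for hepatocyte-only intronic or intergenic peaks.

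Large changes were more frequent among members than among all peaks at each time, but not throughout more frequent than among hepatocyte-only intronic and intergenic peaks. At least 2-fold openings that passed the test numbered 64, 89, 53 and 46 (4.03%, 5.6%, 3.34% and 2.89% of members), where 2.68%, 4.18%, 2.74% and 1.05% of all tested peaks did so. At least 2-fold closings numbered 82, 143, 126 and 95 (5.16%, 9.0%, 7.93% and 5.98%), where 2.33%, 4.3%, 4.02% and 3.7% of all tested peaks did so. Hepatocyte-only intergenic peaks opened at least 2-fold in 4.45%, 6.74%, 4.34% and 1.56% and closed at least 2-fold in 3.52%, 6.85%, 7.12% and 6.67%, so that they had the higher opened share at 3, 8 and 16 h and the higher closed share at 24 h. For hepatocyte-only intronic peaks the shares were 3.3%, 5.54%, 3.78% and 1.24% opened and 3.44%, 6.45%, 5.57% and 5.05% closed. The 3 annotations differed in their balance. Exon members closed in 111, 159, 127 and 122 cases and opened in 47, 98, 91 and 81 of 588. TTS members closed in 121, 154, 128 and 92 cases and opened in 86, 119, 105 and 132 of 617, so that at 24 h more of them opened than closed. Members in 3' UTRs closed in 69, 77, 77 and 64 cases and opened in 47, 76, 66 and 56 of 384, so that opened members were 49.7% of those called at 8 h, against 38.1% of exon and 43.6% of TTS members. These differences between annotations were not tested. Within exons, the 445 members in neither the first nor the last exon had closed shares of 20.2%, 28.5%, 21.8% and 20%, and the 130 tested ones in the last exon 13.8%, 23.1%, 21.5% and 23.1%.

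**Figure D2:**
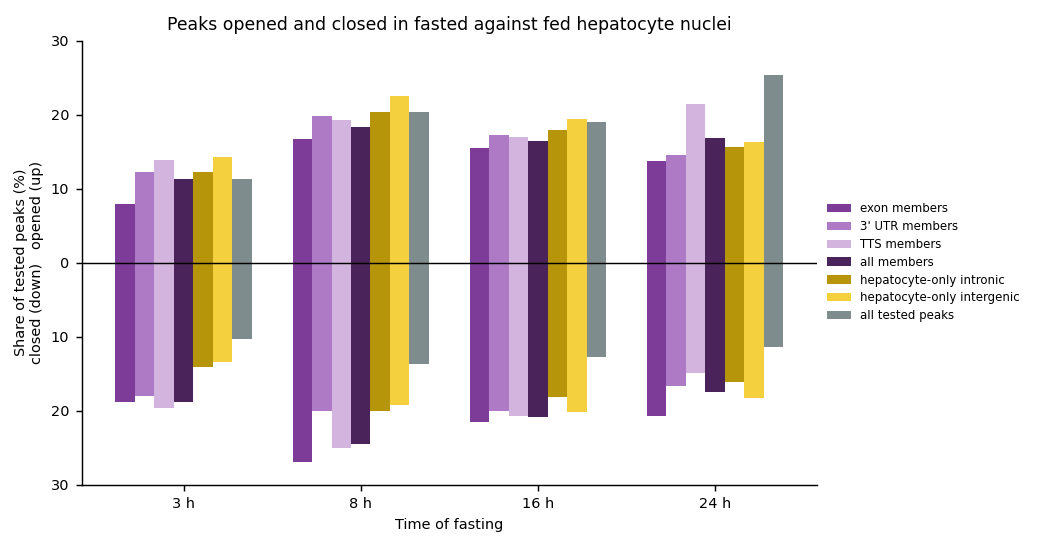
Share of tested peaks (%) opened (upward bars) and closed (downward bars) in fasted against fed hepatocyte nuclei at each time of fasting, for exon, 3' UTR, TTS and all members, hepatocyte-only intronic and intergenic peaks, and all tested peaks. The closed bars of the members reach 24.5% at 8 h, where 13.7% of all tested peaks closed.

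The time course was often uneven. The fasting effect differed between the 4 times in 441 members (27.8%, limma F test, adjusted), where 24.1% of all tested peaks, 26.9% of hepatocyte-only intronic and 29.3% of hepatocyte-only intergenic peaks did so. Members that closed at all 4 times numbered 81 (5.1%) and those that opened at all 4 times 40 (2.52%), and among all tested peaks 2.41% closed and 1.68% opened at all 4 times. Closing at all 4 times was seen in 3.47% of hepatocyte-only intronic and 3.8% of hepatocyte-only intergenic peaks, and opening in 1.69% and 2.24%. Members that opened at 1 time and closed at another numbered 64 (4.03%, all tested peaks 2.72%), and 447 members had no call at any time (28.1%, all tested peaks 32.6%). For hepatocyte-only intronic and intergenic peaks the shares were 3.44% and 3.57% with opposite moves, and 30.7% and 27.8% with no call. Opposite moves were seen in 32 TTS members (5.19%), 15 members in 3' UTRs (3.91%) and 17 exon members (2.89%).

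Where 1 host gene held several members, they mostly moved together. At 3 h, 46 host genes had 2 or more called members, and in 21 all of these opened, in 23 all closed and in 2 they went both ways. At 8 h the numbers were 66 genes, 31 with openings only, 31 with closings only and 4 mixed, at 16 h 56 genes, 24, 24 and 8, and at 24 h 55 genes, 34, 14 and 7. Such neighbours share a stretch of chromatin and, in 59 members (3.71%), overlapping bases, so they are not independent observations. The 14 host genes with 4 or more members followed several time courses.

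**Figure D3:**
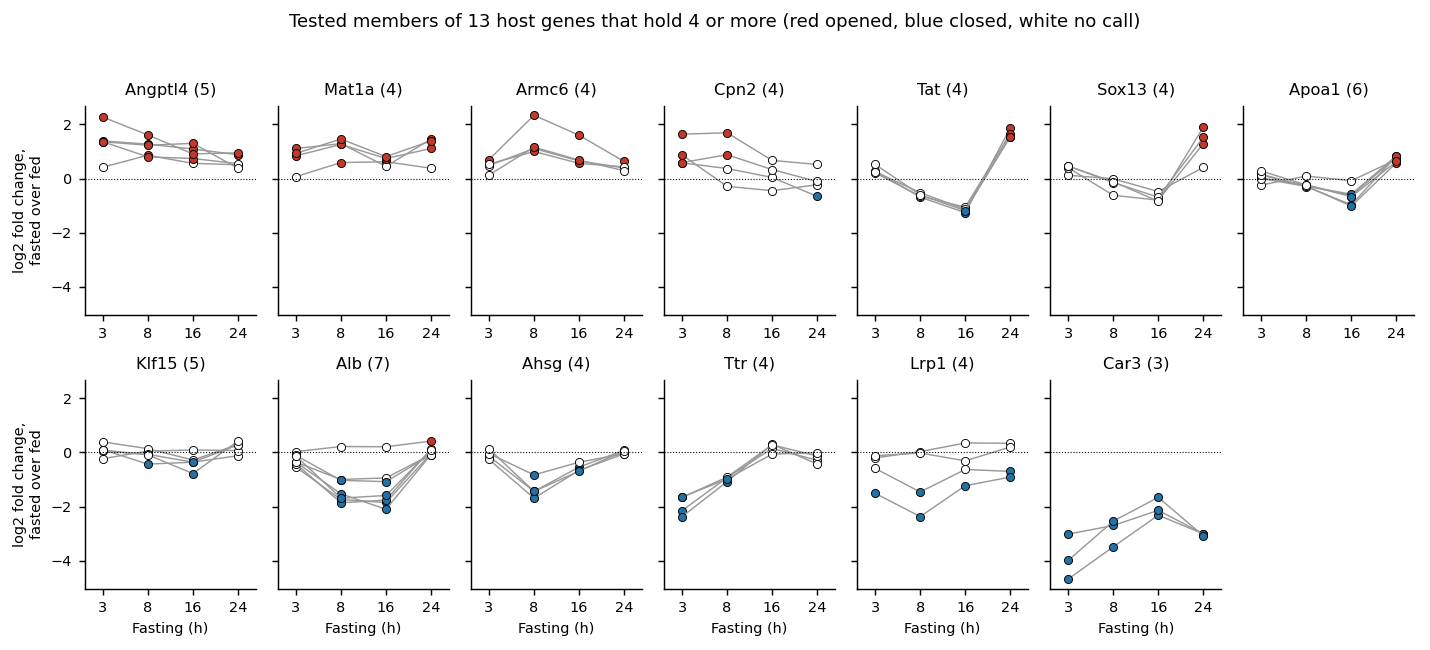
Log2 fold change (fasted over fed, of normalized reads plus 2) of each tested member against hours of fasting, 1 panel for each of 13 of the 14 host genes with 4 or more members, with red points opened, blue points closed, white points with no call, and lines joining the times of 1 peak. Angptl4 members opened in 4, 5, 4 and 2 cases at the 4 times, Tat and Apoa1 members opened at 24 h only, Alb members closed at 8 and 16 h, Ttr members at 3 and 8 h, and Car3 members at every time.

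Openings at fatty acid oxidation and ketogenesis genes came from a few of them. Of 20 members in or nearest to such genes (9 of the 41 listed genes had a member), 13 opened at 3 h, 14 at 8 h, 13 at 16 h and 11 at 24 h, and 1 closed, at 16 h. The median log2 fold changes were 1.20, 1.31, 0.93 and 0.76. Angptl4 held 5 of these members, while those of Pdk4, Creb3l3 and Acot4 had no call at any time, and the closing was in an exon of Decr2. Of all tested peaks, 11.3%, 20.3%, 19.0% and 25.3% opened and 10.3%, 13.7%, 12.8% and 11.4% closed at the 4 times. The counts of this and the later gene lists stand beside these shares, and no list was tested as a set.

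Cyp4a14, which encodes a fatty acid omega-hydroxylase induced through PPARα, had the highest log2 fold change among tested members at each time, at a TTS member 10909 bp from its start (chr4:115485132-115485332). Mice fasted for 3 h held 51.4, 24.0, 31.6 and 22.1 normalized reads, against 1.28, 0, 1.37 and 0.725 in fed mice. At 8 h the values were 42.0, 93.2, 36.8 and 68.3 in fasted and 3.67, 0.928, 0.697 and 2.98 in fed mice. The groups stood apart at all 4 times, with every fed mouse at 5.57 or less. The changes were 3.55 ± 0.36, 3.91 ± 0.36, 2.76 ± 0.36 and 2.74 ± 0.36 (adjusted p = 6.6e-09, 2.64e-10, 2.84e-07 and 8.24e-07), and the promoter peak opened as well, by 1.74, 2.07, 2.16 and 1.99.

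Plin5 codes for a coat protein that ties lipid droplets to mitochondria. Its TTS member (chr17:56111130-56111330, 367 bp past the gene end, nearest to the TSS of the related Plin4) was slower to open. At 3 h the fasted mice held 61.1, 28.5, 43.6 and 49.7 normalized reads and the fed mice 34.7, 39.1, 27.4 and 27.6, which overlap (log2 fold change 0.45 ± 0.23, adjusted p = 0.161). At 24 h it held 76.4, 70.1, 57.1 and 58.9 in fasted mice, against 18.3, 19.1, 17.7 and 21.9 in fed mice, with no overlap. It opened by 1.55 ± 0.23 at 8 h, 1.60 ± 0.23 at 16 h and 1.66 ± 0.23 at 24 h (adjusted p = 1.81e-06, 1.45e-06 and 1.8e-06), and its fasting effect differed between times (adjusted p = 0.0112). The fed level itself varied with time (adjusted p = 0.000445) and was lowest at 16 h, ZT4, with 9.83 to 14.7.

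Angptl4, a secreted inhibitor of lipoprotein lipase, held 5 members, of which 4, 5, 4 and 2 opened at 3, 8, 16 and 24 h. At its TTS member (chr17:33774889-33775089), mice fasted for 3 h held 99.4, 68.0, 81.8 and 58.4 normalized reads, against 8.34, 12.5, 24.0 and 15.2 in fed mice, and the change was 2.27 ± 0.33 (adjusted p = 5.51e-06). At 24 h the fasted mice had 111.0, 94.8, 82.4 and 98.2 there and the fed mice 55.0, 43.0, 46.3 and 51.6, a difference of 0.95 ± 0.33 (adjusted p = 0.0231). An exon member of the gene (chr17:33780470-33780670) opened by 1.36, 1.23 and 1.30 at 3, 8 and 16 h, and had a change of 0.38 ± 0.22 at 24 h (adjusted p = 0.171) with overlap of the groups.

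Gluconeogenic genes showed fewer and less steady openings. Of 9 members at 5 of 15 listed genes, 4 opened at 3 h, 4 at 8 h, 1 at 16 h and 4 at 24 h, and none closed at any time. Pck1, the gene of cytosolic PEPCK, had a member 821 bp past its end (chr2:173159995-173160195). After 3 h of fasting it held 177.0, 206.0, 185.0 and 178.0 normalized reads, against 24.4, 103.0, 31.5 and 32.6 in fed mice, a change of 2.15 ± 0.36 (adjusted p = 3.63e-05). At 16 h the values were 95.0, 215.0, 117.0 and 46.3 in fasted and 241.0, 192.0, 74.7 and 97.8 in fed mice, wide and overlapping (-0.39 ± 0.36, adjusted p = 0.412). The fed mice varied between the times of day (adjusted p = 6.71e-05).

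Past the end of G6pc, the catalytic subunit of glucose-6-phosphatase (chr11:101378270-101378470, 467 bp past the end), fasted mice held 74.3, 53.1, 72.0 and 55.7 normalized reads at 24 h, against 19.6, 29.4, 10.9 and 28.9 in fed mice, and the site opened by 1.51 ± 0.35 (adjusted p = 0.00131). At 16 h the 4 fasted mice had 19.9, 59.2, 43.3 and 24.4 and the 4 fed mice 96.5, 81.6, 15.7 and 51.0, again overlapping (-0.57 ± 0.35, adjusted p = 0.215). A TTS member of Gcgr, the glucagon receptor, took the other course. It opened by 0.63 ± 0.15 at 8 h and 0.73 ± 0.15 at 16 h (adjusted p = 0.00127 and 0.000282), with changes of -0.13 at 3 h and 0.05 at 24 h (adjusted p = 0.603 and 0.819).

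Genes of amino acid catabolism and the urea cycle had 37 members, and their calls turned between 16 and 24 h. Openings and closings numbered 13 and 2 at 3 h, 9 and 5 at 8 h, 4 and 10 at 16 h, and 25 and 2 at 24 h, with medians of 0.29, 0.23, -0.25 and 0.62. Tat, tyrosine aminotransferase, held 4 members around its end. Its 3' UTR member (chr8:109999022-109999222) held 144.0, 135.0, 106.0 and 106.0 normalized reads in mice fasted for 24 h, against 21.4, 49.3, 21.1 and 46.4 in fed mice, with no overlap, and opened by 1.86 ± 0.50 (adjusted p = 0.00426). At 16 h it held 10.4, 34.3, 48.9 and 10.5 in fasted mice, against 77.6, 78.8, 32.4 and 40.4 in fed mice, which overlap, and it closed by a log2 fold change of -1.26 ± 0.50 (adjusted p = 0.0493). All 4 Tat members opened at 24 h (1.55 to 1.86) and 2 closed at 16 h, and the effect on the 3' UTR member differed between times (adjusted p = 0.00605).

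At 8 h the fasted mice did not behave as 1 group at the Tat end. They held 5.69, 73.4, 15.5 and 87.6 normalized reads, against 62.4, 82.6, 19.5 and 51.2 in fed mice. Mice 1 and 3 stood under every fed mouse, mouse 2 among them and mouse 4 above them. The same mice were low at the end of Lpin1, a phosphatidate phosphatase and coactivator of fat oxidation, with 0.711, 26.8, 1.72 and 24.8 in fasted and 2.75, 3.71, 0.697 and 3.57 in fed mice. They were low again at the Alb end described further on. The mean of the fasted mice at 8 h therefore stands for a wide range at these ends, and no call was made at Tat (-0.69 ± 0.50, adjusted p = 0.291) or Lpin1 (1.06 ± 0.49, adjusted p = 0.0900) at that time.

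Sds, serine dehydratase, opened at its TTS member at 3 and 24 h only (chr5:120484097-120484297). Mice fasted for 24 h held 55.0, 40.8, 39.6 and 67.1 normalized reads, against 9.79, 14.3, 10.2 and 17.5 in fed mice (1.81 ± 0.36, adjusted p = 0.000258). The 3 h change was 1.5 ± 0.36 (adjusted p = 0.00225), also with no overlap. At 16 h the values were 11.2, 24.9, 10.4 and 11.3 in fasted and 31.5, 33.5, 20.6 and 17.0 in fed mice (-0.78 ± 0.36, adjusted p = 0.0911). A 3' UTR member of Cnnm1, whose nearest TSS is that of Got1, cytosolic aspartate aminotransferase, ran alongside. It held 49.5, 37.0, 34.4 and 58.9 normalized reads in mice fasted for 24 h, against 6.12, 4.77, 14.3 and 20.1 in fed mice, and opened by 1.95 ± 0.39 (adjusted p = 0.000323).

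Other amino acid genes kept their own timing. Mat1a, which makes S-adenosylmethionine in the adult liver, held 4 members, of which 3, 4, 3 and 3 opened at 3, 8, 16 and 24 h. Its TTS member at chr14:41124459-41124659 held 62.6, 62.6, 72.0 and 79.4 normalized reads in mice fasted for 24 h, against 23.2, 22.3, 25.2 and 24.5 in fed mice, and opened by 1.46 ± 0.26 (adjusted p = 7.31e-05). An exon member of Gldc, glycine decarboxylase, at exon 4 of 25, peaked at 16 h instead. It held 137.0, 144.0, 165.0 and 89.0 in fasted and 35.7, 44.6, 48.1 and 61.6 in fed mice (1.45 ± 0.15, adjusted p = 6.56e-09), with 0.10 ± 0.15 at 3 h (adjusted p = 0.7). Aass, the first enzyme of lysine breakdown, closed at an exon at 16 h only, with 58.7, 126.0, 80.1 and 95.1 in fasted and 160.0, 152.0, 142.0 and 140.0 in fed mice (-0.76 ± 0.14, adjusted p = 6.16e-05). Near Tdo2, tryptophan dioxygenase, a 3' UTR member of the neighbouring cathepsin gene Ctso opened by 1.67, 1.60 and 1.21 at 3, 8 and 24 h (adjusted p = 0.000271, 0.0002 and 0.00434).

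Members at glucocorticoid response genes opened early and late. Of 21, at 9 of 23 listed genes, 13, 10, 6 and 15 opened at 3, 8, 16 and 24 h, and 0, 1, 5 and 0 closed. These include the Angptl4, Sds and Tat members above, so the lists overlap. Mt2, a metallothionein, had a TTS member 123 bp past its end (chr8:94173590-94173790). Mice fasted for 3 h held 48.1, 21.0, 44.7 and 26.1 normalized reads, against 5.78, 3.69, 8.23 and 3.63 in fed mice, and it opened by 2.30 ± 0.31 (adjusted p = 1.29e-06). It opened by 1.43, 1.53 and 0.98 at the later times, with overlap of the groups at 24 h. The Lpin1 member opened at 3 h by 2.29 ± 0.49 (17.1, 23.5, 22.9 and 15.8 in fasted and 3.85, 1.48, 3.43 and 1.45 in fed mice, adjusted p = 0.000778) and at 24 h by 1.58 ± 0.49 (adjusted p = 0.0120), and no difference passed the test at 8 or 16 h.

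Of 9 members at genes of hepatocyte transcription factors, 5, 3, 2 and 3 opened and 0, 1, 1 and 0 closed, the closings in a TTS member of Cebpa. Cebpd, a C/EBP factor induced by glucocorticoids, had a TTS member at chr16:15889597-15889797. It held 176.0, 139.0, 157.0 and 133.0 normalized reads in mice fasted for 24 h, against 41.6, 58.9, 40.1 and 53.4 in fed mice, and opened by 1.61 ± 0.33 (adjusted p = 0.000382). The promoter of Cebpd opened at 24 h as well, by 0.36 (adjusted p = 0.00155), and changed by -0.09, 0.15 and 0.14 at 3, 8 and 16 h (adjusted p = 0.497, 0.157 and 0.189). Foxa3, a forkhead factor of hepatocytes, opened at a TTS member (chr7:19013007-19013207) at all 4 times, by 0.64, 0.76, 0.92 and 1.24. At 24 h it held 110.0, 117.0, 111.0 and 133.0 in fasted and 46.5, 37.4, 52.4 and 60.4 in fed mice (adjusted p = 8.82e-05).

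At genes of fat synthesis, closings outnumbered openings. Of 19 members at 10 of 32 genes of fatty acid and triglyceride synthesis, 11, 10, 6 and 6 closed and 4, 2, 1 and 2 opened, with medians of -0.63, -0.46, -0.33 and -0.42. The openings at 3 h were at Lpin1, at an Emilin2 exon nearest to Lpin2, at Elovl3, a fatty acid elongase, and in another 3' UTR member of Tom1l2. Srebf1, the SREBP-1 transcription factor of lipogenesis, closed 700 bp past its end at all 4 times (chr11:60198284-60198484). Mice fasted for 3 h held 4.89, 7.50, 8.73 and 7.90 normalized reads, against 41.1, 35.4, 24.7 and 42.1 in fed mice, and the change was -2.02 ± 0.31 (adjusted p = 1.31e-05). In the 3' UTR of its neighbour Tom1l2, a member nearest to the Srebf1 start closed too, by -0.90, -1.34, -0.58 and -0.98, and at 8 h held 37.7, 32.5, 42.5 and 26.2 in fasted and 80.8, 113.0, 81.5 and 85.7 in fed mice (adjusted p = 3.6e-08). Scd1, the stearoyl-CoA desaturase, had a TTS member that closed by -1.74, -2.04, -1.88 and -3.15, with 4.82, 5.69, 3.89 and 4.91 in mice fasted for 24 h against 34.3, 66.0, 59.9 and 84.0 in fed mice.

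Members near a glycolytic gene and a gene of triglyceride clearance closed at 3 and 8 h and mostly not later. The last exon of Hcn3, an ion channel gene, held a member nearest to the start of Pklr, liver pyruvate kinase (chr3:89147635-89147835). After 3 h of fasting it held 8.15, 8.00, 12.0 and 19.0 normalized reads, against 54.5, 68.6, 45.2 and 55.9 in fed mice (-2.13 ± 0.28, adjusted p = 1.29e-06). The change was -1.52 ± 0.28 at 8 h (adjusted p = 7.17e-05) and did not pass the test at 16 and 24 h (-0.62 and -0.42, adjusted p = 0.0891 and 0.240). Angptl8, a feeding-induced partner in the inhibition of lipoprotein lipase, lies within an intron of Dock6, and both genes had members. The one 579 bp past the Angptl8 end (chr9:21837826-21838026) held 1.63, 5, 3.27 and 2.37 in mice fasted for 3 h, against 63.5, 80.4, 56.9 and 94.3 in fed mice (-3.92 ± 0.36, adjusted p = 1.49e-09). The Dock6 exon member near it, at exon 14 of 50, held 2.45, 4.5, 1.09 and 3.95 in fasted and 25.7, 42.8, 37.7 and 39.9 in fed mice (-2.98 ± 0.42, adjusted p = 3.44e-06). At 16 h the Angptl8 end was still lower in fasted mice, by -1.06. It held 10.4, 11.4, 12.0 and 6.98 in fasted and 16.8, 18.1, 33.4 and 27.6 in fed mice, with no overlap. The Dock6 exon changed by -0.04 at 16 h. At 24 h the fed mice held 6.73 to 14.9 at the Angptl8 end and 1.36 to 21.9 at the Dock6 exon, and neither difference passed the test (-0.74 ± 0.36, adjusted p = 0.0970, and -0.26 ± 0.42, adjusted p = 0.652).

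Sterol and bile acid genes gave both steady and brief closings. Of 10 members at cholesterol synthesis genes, 5, 4, 1 and 5 opened and 3, 3, 4 and 3 closed, so this list had no common direction. Insig1, the membrane protein that holds back SREBP processing, closed 476 bp past its end (chr5:28079038-28079238) by -2.55, -2.81, -2.78 and -2.54 (adjusted p = 1.87e-06, 9.4e-08, 1.57e-07 and 1.83e-06). At 16 h it held 4.32, 6.23, 0.801 and 1.75 normalized reads in fasted mice, against 36.4, 25.1, 24.6 and 42.5 in fed mice, with no overlap at any time. The 3' UTR member of Cyp7a1, which codes for the enzyme that sets the pace of bile acid production, changed side (chr4:6265688-6265888). It held 22.0, 16.0, 17.5 and 22.9 in mice fasted for 3 h, against 59.0, 59.0, 56.2 and 55.9 in fed mice (-1.48 ± 0.19, adjusted p = 9.44e-07). At 16 h it held 58.7, 43.6, 63.3 and 35.8 in fasted and 34.3, 41.1, 42.3 and 22.3 in fed mice, an opening with overlap of the groups (0.51 ± 0.19, adjusted p = 0.0417), and the effects differed between times (adjusted p = 2.07e-05). The TTS member of Cyp7a1 did not change side, with changes of -3.06, -2.33, -0.23 and -1.34 at the 4 times. The Cyp7a1 promoter closed by -0.77 and -0.96 at 3 and 8 h (adjusted p = 4.95e-05 and 5.21e-07). It did not pass the test at 16 or 24 h (adjusted p = 0.994 and 0.969).

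Of 20 members at bile acid and xenobiotic genes, 7, 6, 8 and 4 opened and 3, 1, 1 and 4 closed. Among all tested peaks the opened shares were 11.3%, 20.3%, 19.0% and 25.3% and the closed shares 10.3%, 13.7%, 12.8% and 11.4%. Por, the electron donor of the microsomal P450 enzymes, opened at an exon (chr5:135734340-135734540) at 3, 8 and 24 h, by 1.46, 1.25 and 1.14 (adjusted p = 0.00043, 0.00108 and 0.00325), with 34.4, 34.1, 27.3 and 31.9 normalized reads in mice fasted for 24 h against 11.6, 14.3, 14.3 and 13.1 in fed mice. Abcc3, an exporter of bile acids and conjugates, reversed at exon 18 of 31. Fasted mice held 40.8, 50.5, 37.1 and 56.1 at 3 h, against 22.5, 13.3, 27.4 and 23.9 in fed mice, an opening of 1.04 ± 0.23 (adjusted p = 0.00102). At 24 h they held 21.3, 23.7, 22.1 and 12.3, against 42.8, 39.8, 44.2 and 41.1 in fed mice, a closing of -1.04 ± 0.23 (adjusted p = 0.000779), with no overlap at either time.

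Plasma protein genes made up the largest list, with 62 members at 28 of 83 genes, and its calls turned with time. Closings numbered 11, 22, 22 and 2 and openings 5, 7, 11 and 17 at 3, 8, 16 and 24 h. These are counts of peaks, and neighbouring peaks of a few genes gave many of them. Of the closings, Ttr held 4 at 3 h. Alb held 6, Ahsg 4 and Ttr 3 at 8 h, and Alb 6, Apoa1 5 and Ahsg 3 at 16 h. Of the openings at 24 h, Apoa1 held 6 and Alb 1. Ttr, the thyroxine and retinol carrier transthyretin, was first: all 4 of its members closed at 3 h, 3 at 8 h and none at 16 or 24 h. Its 3' UTR member (chr18:20674047-20674247) held 5.71, 4.5, 7.64 and 8.69 normalized reads in mice fasted for 3 h, against 55.2, 40.6, 34.3 and 39.9 in fed mice (-2.37 ± 0.36, adjusted p = 8.76e-06). At 24 h fasted mice held 8.26, 13.3, 7.14 and 11.5 and fed mice 13.5, 23.9, 6.12 and 17.5 (-0.43 ± 0.36, adjusted p = 0.346).

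Alb, serum albumin, followed at 8 and 16 h, when 6 of its 7 members closed. The TTS member 834 bp past its end (chr5:90477336-90477536, nearest to the start of the fetal albumin relative Afp) held 34.5, 22.9, 20 and 64.6 normalized reads in mice fasted for 16 h, against 90.2, 102.0, 153.0 and 72.3 in fed mice, with no overlap, and closed by -1.59 ± 0.47 (adjusted p = 0.00845). At 8 h the fasted values were 4.98, 86.2, 11.5 and 103.0 and the fed values 78.0, 165.0, 55.7 and 122.0, with a change of -1.69 ± 0.47 (adjusted p = 0.00454). That call rested on the 2 lowest mice. Without fasted mouse 1 the change was -0.98 with an adjusted p of 0.0558, and DESeq2 gave -1.14 with an adjusted p of 0.0836. At 24 h the groups overlapped again (0.09 ± 0.47, adjusted p = 0.890). The Alb promoter, whose spaced C/EBP match is printed above, changed by -0.06 at 8 h and 0.01 at 16 h (adjusted p = 0.712 and 0.936), and at 24 h it opened by 0.36 (adjusted p = 0.0135).

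Ahsg, the fetuin-A gene, closed at all 4 of its members at 8 h and at 3 of 4 at 16 h. The one 910 bp past its end (chr16:22900261-22900461) held 23.5, 36.7, 32.2 and 55.2 normalized reads in mice fasted for 8 h, against 83.5, 107.0, 98.9 and 110.0 in fed mice (-1.44 ± 0.19, adjusted p = 2.82e-07). F10, coagulation factor X, closed past its end by -0.40, -0.79 and -0.70 at 3, 8 and 16 h, with no overlap at any of these times, and had a change of -0.07 at 24 h (adjusted p = 0.612). Apoa1, the main protein of HDL, went both ways. Of its 6 members, 5 closed at 16 h and all 6 opened at 24 h. The TTS member 380 bp past its end (chr9:46230749-46230949) held 47.5, 41.5, 49.7 and 29.7 in mice fasted for 16 h, against 87.4, 103.0, 100 and 59.5 in fed mice (-1.02 ± 0.19, adjusted p = 9.52e-05). At 24 h it held 107.0, 92.9, 108.0 and 95.0 in fasted and 55.7, 82.7, 66.0 and 64.7 in fed mice (0.58 ± 0.19, adjusted p = 0.0175), with no overlap at either time.

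Car3, a carbonic anhydrase gene of liver, muscle and fat, had the lowest log2 fold changes of the tested members at 3 and 8 h (-4.68 and -3.49). It held 5 members, of which 3 could be tested, and these closed at all times. The member 9727 bp from its start (chr3:14873165-14873365) held 4.13, 1.90, 1.95 and 2.46 normalized reads in mice fasted for 24 h, against 61.2, 41.4, 33.3 and 20.1 in fed mice (-3.08 ± 0.40, adjusted p = 6.62e-07). At 3 h it held 1.63, 11.5, 1.09 and 7.11 in fasted and 93.0, 90.0, 103.0 and 93.6 in fed mice (-3.99 ± 0.40, adjusted p = 5.71e-09).

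Members in genes of the circadian clock and of the growth hormone and STAT5 axis were few. Beside their counts, 11.3% to 25.3% of all tested peaks opened and 10.3% to 13.7% closed over the 4 times. Of 6 clock members, 1 opened at each time and 2, 3, 2 and 3 closed. Dbp, a PAR-domain output factor of the clock, was the one that opened, at exon 3 of 4 (chr7:45708220-45708420), by 0.99, 1.15, 0.61 and 0.50, with 66.0, 61.5, 65.5 and 67.9 normalized reads in mice fasted for 3 h against 28.2, 41.3, 26.1 and 34.1 in fed mice. Its relative Hlf closed at an exon at 8, 16 and 24 h, and at 24 h held 6.88, 6.63, 7.14 and 8.19 in fasted and 26.3, 25.5, 27.2 and 26.2 in fed mice (-1.62 ± 0.30, adjusted p = 0.000138). Csnk1e, a kinase that marks PER proteins for decay, closed at an exon at all 4 times, by -1.0, -1.41, -0.95 and -0.71. Of 6 members at growth hormone and STAT5 genes, 0, 1, 0 and 1 opened and 2, 3, 2 and 3 closed. Stat5a closed past its end by -1.33 ± 0.21 at 8 h, with 15.7, 24.0, 18.4 and 15.2 in fasted and 54.2, 62.2, 33.4 and 47.6 in fed mice (adjusted p = 8.33e-06). Of 5 members at insulin and FOXO signalling genes (Grb10, Insr, Irs1 and Trib3), 1, 0, 1 and 1 opened and 0, 0, 3 and 2 closed, and of 5 at autophagy and lysosome genes 0, 2, 0 and 1 opened and none closed.

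Large changes in exons also stood in genes of other pathways. Emilin2, an extracellular matrix gene, held an exon member nearest to Lpin2, a lipin of the liver (chr17:71256242-71256442, 51688 bp away). Mice fasted for 3 h held 85.6, 41.0, 79.6 and 56.9 normalized reads, against 8.34, 5.90, 7.54 and 7.98 in fed mice (2.80 ± 0.41, adjusted p = 6.66e-06). It opened at the other times too, by 3.11, 1.44 and 1.19. At 8 h it held 20.6, 79.1, 40.8 and 126.0 in fasted and 3.67, 1.86, 5.57 and 8.93 in fed mice, where the same fasted mice as at Tat were the low ones but all stood above the fed mice.

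Upf1, the helicase of nonsense-mediated mRNA decay, closed at exon 12 of 24 at 3 and 8 h only (chr8:70338362-70338562). After 8 h of fasting it held 8.54, 4.24, 3.45 and 6.21 normalized reads, against 47.7, 47.4, 36.2 and 39.3 in fed mice (-2.59 ± 0.30, adjusted p = 2.66e-08), and at 24 h 34.4, 30.3, 45.4 and 28.7 in fasted and 29.4, 36.6, 42.9 and 24.5 in fed mice (0.06 ± 0.30, adjusted p = 0.882). Lrp1, the endocytic receptor of chylomicron remnants, held 4 exon members that did not move together. The one at exon 32 of 89 closed at all 4 times, at 8 h by -2.37 ± 0.29 with 17.1, 15.5, 10.3 and 6.21 in fasted and 83.5, 85.4, 55.0 and 54.2 in fed mice (adjusted p = 6.04e-08), while that at chr10:127576362-127576562 changed by -0.20, 0.03, 0.35 and 0.34 with no call. The end of Letm1, a mitochondrial inner membrane gene, closed at all times, nearest to the start of Fgfr3. At 8 h it held 26.3, 15.5, 16.1 and 15.9 in fasted and 101.0, 87.3, 96.1 and 107.0 in fed mice (-2.32 ± 0.16, adjusted p = 6.65e-13).

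Jade1, a scaffold of a histone acetyltransferase complex, closed in its 3' UTR (chr3:41614698-41614898) while its promoter opened. The 3' UTR member held 6.52, 12.0, 13.1 and 15.0 normalized reads in mice fasted for 3 h, against 51.3, 53.1, 58.3 and 58.8 in fed mice (-2.11 ± 0.29, adjusted p = 1.97e-06). The promoter peak had 115.0 ± 15.5 in fasted and 81.0 ± 19.4 in fed mice (SD, n = 4 each), an opening of 0.51 (adjusted p = 0.00426). The threonyl-tRNA synthetase gene Tars closed past its end at each time and most at 24 h, with 5.50, 5.69, 4.54 and 5.73 in fasted and 41.6, 30.2, 34.7 and 37.6 in fed mice (-2.36 ± 0.20, adjusted p = 1.9e-10).

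**Figure D4:**
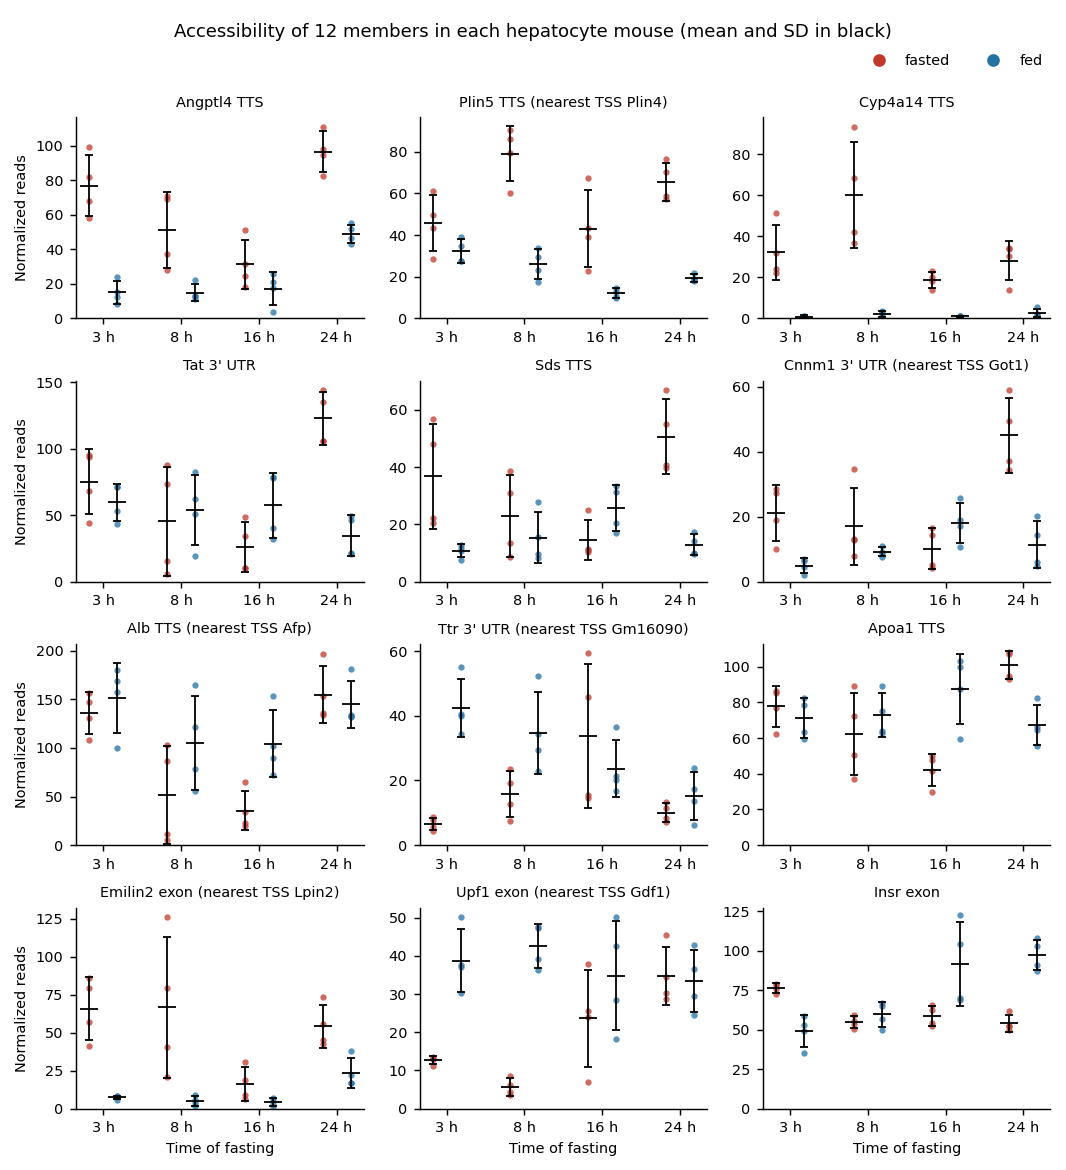
Normalized reads at 12 named members in each mouse at 3, 8, 16 and 24 h (1 point per mouse, fasted red and left, fed blue and right, bars mean and SD of 4 mice). Cyp4a14 and Emilin2 points of fed mice lie near 0 at 8 h, Tat, Sds and Cnnm1 separate most at 24 h, and the fasted Alb and Tat mice at 8 h spread widely.

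Among members whose effect changed with time, the smallest p-values belonged to peaks that crossed from opened to closed or peaked in the middle of the fast. Adcy10, the bicarbonate-sensing adenylyl cyclase, opened at exon 6 of 34 at 3 h with 96.2, 101.0, 87.3 and 93.2 normalized reads in fasted and 64.2, 68.6, 59.0 and 60.9 in fed mice (0.57 ± 0.14, adjusted p = 0.00362). It closed at 24 h with 44.0, 38.9, 38.9 and 33.6 in fasted and 82.0, 89.1, 64.6 and 84.0 in fed mice (-1.0 ± 0.14, adjusted p = 3.57e-06; unequal effects, adjusted p = 3.09e-06). Kyat3, a kynurenine aminotransferase, opened in its 3' UTR at 3 h (0.68) and closed at 16 and 24 h (-0.67 and -1.03; unequal effects, adjusted p = 1.21e-05). Insr, the insulin receptor, took the same course at exon 3 of 21. It held 75.8, 79.0, 78.5 and 72.6 in mice fasted for 3 h, against 49.4, 35.4, 52.8 and 58.8 in fed mice (0.64 ± 0.15, adjusted p = 0.00171), and 49.5, 61.6, 52.6 and 52.4 at 24 h, against 87.5, 90.7, 103.0 and 108.0 in fed mice (-0.83 ± 0.15, adjusted p = 9e-05). The fasted values of Insr lay between 49.5 and 79.0 at all 4 times, and the fed ones between 35.4 and 123.0, with a test of the fed times at adjusted p = 7.72e-06.

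Pla2g12a, a secreted phospholipase gene beside Casp6, opened 992 bp past its end at 3 h (1.23 ± 0.15, adjusted p = 2.57e-07) and closed at 16 h (-0.49 ± 0.15, adjusted p = 0.0110). Fasted mice held 92.9, 88.5, 104.0 and 102.0 normalized reads at 3 h, against 42.4, 42.8, 43.9 and 31.9 in fed mice, and 100, 94.5, 56.1 and 79.4 at 16 h, against 110.0, 108.0, 112.0 and 129.0. Csrnp1 closed at its last exon only from 8 h on, most at 16 h, with 34.5, 32.2, 20 and 16.6 in fasted and 107.0, 113.0, 75.7 and 85 in fed mice (-1.84 ± 0.17, adjusted p = 2.78e-10). The gene 9130401M01Rik opened most at 16 h at its last exon, with 106.0, 75.8, 125.0 and 100 in fasted and 29.4, 21.6, 24.6 and 21.3 in fed mice (1.98 ± 0.16, adjusted p = 2.74e-11). Armc6, whose end lies near the start of the mitochondrial carrier gene Slc25a42, opened at all 4 of its members at 8 and 16 h. The most affected held 154.0, 155.0, 115.0 and 152.0 in mice fasted for 8 h, against 24.8, 30.6, 24.4 and 27.4 in fed mice (2.34 ± 0.21, adjusted p = 1.23e-10).

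In fed mice alone, 380 members varied between the 4 times (23.9%, limma F test), where 21.1% of all tested peaks did so. The share was 23.7% for hepatocyte-only intronic and 24.6% for hepatocyte-only intergenic peaks. Among the 380 varying members, 98 (25.8%) were highest at ZT15, 50 (13.2%) at ZT20, 129 (33.9%) at ZT4 and 103 (27.1%) at ZT12. Of all varying peaks, 16.3%, 13.3%, 42.2% and 28.2% were highest at these times, so that ZT15 held a larger and ZT4 a smaller part of the members. The time of the highest fed mean was read from the values as deposited and not repeated under other scalings. It was not computed for hepatocyte-only intronic or intergenic peaks. Within the set, 42 of 120 varying exon members (35.0%), 22 of 92 in 3' UTRs (23.9%) and 34 of 168 TTS members (20.2%) were highest at ZT15.

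Members spread more widely in fold change than the promoters of the same genes, and both correlated weakly. For 895 host genes with a promoter peak, the log2 fold change of the member correlated with that of the promoter by Pearson's r of 0.27, 0.19, 0.16 and 0.27 and Spearman's rho of 0.18, 0.15, 0.13 and 0.23 at 3, 8, 16 and 24 h. This is across genes within the same libraries, so that both values share depth and scaling. By annotation, r was 0.39, 0.31, 0.24 and 0.33 for 378 genes with a TTS member, 0.17, 0.14, 0.16 and 0.26 for 364 with an exon member, and 0.09, 0.03, 0.01 and 0.12 for 246 with a 3' UTR member. The SD of the log2 fold change over genes was 0.59, 0.70, 0.61 and 0.56 for members and 0.29, 0.35, 0.31 and 0.28 for promoters. Members differ in precision, with a median SE of 0.24 under a mean of 30 reads and 0.17 otherwise. At the promoters printed above, the SE was 0.11 at Alb, 0.09 at Angptl8, 0.12 at G6pc, 0.12 at Hlf and 0.31 at Mt2. The part of measurement error in these spreads and correlations was not tested. Members passed the test in 253, 378, 318 and 326 of the 895 genes, without a promoter call in 207, 275, 216 and 134 of these. Promoters passed it in 118, 226, 278 and 506, so that at 24 h more promoters (56.5%) than members (36.4%) were called. Where both passed, 34, 67, 55 and 123 pairs had the same sign and 12, 36, 47 and 69 opposite signs. The promoter calls in this text rest on the values as deposited and were not repeated under other scalings. At 24 h, 25.3% of all tested peaks opened as deposited, 10.7% in edgeR and 9.83% in DESeq2.

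**Figure D5:**
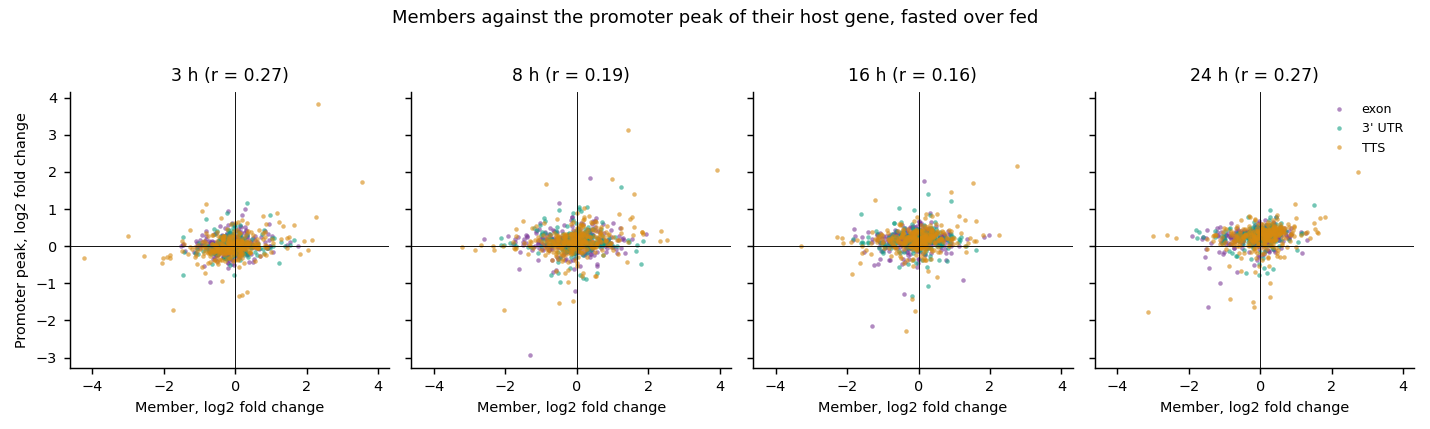
Log2 fold change (fasted over fed) of the promoter peak of a host gene (vertical) against that of its member (horizontal) at each time, 1 point for each of 895 host genes, coloured by the annotation of the member. Points spread more widely along the member axis (SD 0.59 at 3 h) than along the promoter axis (SD 0.29 at 3 h).

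At Insig1, the end closed by -2.55, -3.21, -3.29 and -2.62 at the member 863 bp past the gene, while its promoter changed by -0.28, -0.02, 0.01 and 0.31 (adjusted p = 0.0178, 0.887, 0.932 and 0.00554). At Cyp4a14 and Mt2 the promoter opened too, by 1.74 and 3.82 at 3 h beside member openings of 3.55 and 2.30. The Mt2 promoter, printed above, held 165.0 ± 16.0 normalized reads in mice fasted for 3 h and 10.9 ± 5.62 in fed mice (SD, n = 4 each). At G6pc the promoter opened by 0.36, 0.41 and 0.63 at 8, 16 and 24 h (adjusted p = 0.0205, 0.00826 and 0.000204), also at 16 h, when the gene end had a change of -0.57 without passing the test. The Hlf promoter with its CREB match changed by 0.07 at 8 h (adjusted p = 0.671), when the exon member closed by -1.41 (adjusted p = 0.000373), and did not pass the test at 3, 16 and 24 h either (0.10, 0.23 and 0.19).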

How the data were processed

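ATAC-seq signal was taken from the authors' hepatocyte table, where each value is the deposited number of reads in a 200 bp peak divided by 1 factor per library, as the values themselves show. Dividing by each library's step gave whole reads (within 0.05 read) for 100% of values. BWA 0.7.5a-r405, SAMtools, HOMER, DESeq2 and mm10 are named, per the submitters' processing notes, without roles. The authors' deposited log2 fold changes and adjusted p-values were not used. Annotation, distance to the TSS and coordinates are those of the authors' tables, and macrophage overlap used bedtools 2.31.1 and all 30170 macrophage peaks.

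Peaks with a mean of 10 normalized reads or more were tested with limma 3.58.1 (R 4.3.3) on log2 of the value plus 2, with 8 group means over 32 libraries, a variance trend and Benjamini-Hochberg adjustment over 46827 peaks. F tests asked for unequal fasting effects and for variation in fed mice. The fit was tested on simulated data. edgeR 4.0.16 and DESeq2 1.42.0 on the recovered reads, other offsets, filters, scalings and omitted mice were alternatives. The mouse numbers in this text follow accession order only, and no source used here gives the pairing or culture of samples. Besides the library number, each title holds a further number, which was not used. Sequences came from RefSeq (GRCm38.p6); gene ends and promoter windows were placed with those tables, whose starts matched 90.4% of 12870 checked peaks.

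Named peaks were, at each time, the 5 opened and 5 closed members with the largest change among those whose groups did not overlap (1 per nearest gene, predicted genes passed over), 2 each per annotation, up to 2 per gene list by p, the 5 highest, the 5 genes with most members, the 5 smallest F-test p-values and the promoter peak of the same gene. Members and lists were chosen with earlier results of these data known. Peaks that the text adds for the most affected member of a gene with several come from the same tables. Some items are not reported here.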

Additional observations from a re-analysis of the deposited data

Results flagged for a closer look

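In 16 of 290 groups of 4 mice (5.52%), 1 mouse stood apart from the other 3 by Dixon's criterion. Chance alone meets it in about 1 of 20 groups. Examined were the groups at named members and the share of reads in members in each of the 8 groups. The 16 were all at named members. At the Pck1 end, 1 fed mouse held 103.0 normalized reads at 3 h, the others 24.4 to 32.6. At the Best3 end, 1 mouse fasted for 16 h held 76.9, the others 5.24 to 6.04, and at an Fcf1 exon 1 such mouse held 65.7, the others 18.1 to 21.8. Among mice fasted for 8 h, 1 was low at the Armc6 end (115.0, others 152.0 to 155.0), in a Gldc exon (127.0, others 150.0 to 153.0) and at the Cyp7a1 end (0.575, others 2.76 to 2.85). Among mice fasted for 24 h, 1 was high in a Kctd6 exon (48.3, others 34.1 to 36.3) and low in the Ranbp10 3' UTR (3.27, others 6.19 to 6.63). Another was low at a Mat1a end (44.5, others 57.3 to 59.2).

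Among mice fed at 8 h, 1 was high at a Car3 end (39.9, others 28.8 to 30.7) and at the Cyp7a1 end (26.8, others 15.8 to 17.4). Another was high in a Svop exon (91.9, others 82.2 to 82.7) and in the Tom1l2 3' UTR (113.0, others 80.8 to 85.7). A different mouse again was high in the Jade1 3' UTR (52.2, others 45.8 to 46.8). A Per2 exon was low in 1 mouse fed at 3 h (148.0, others 164.0 to 167.0), and an Apoa1 exon high in 1 mouse fed at 24 h (91.0, others 72.2 to 72.8).

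The fasting effect differed between the 4 times in 441 members by limma's F test. The smallest adjusted p-values were 3.09e-06 at Adcy10, 9.06e-06 at Pla2g12a, 1.03e-05 at 9130401M01Rik, and 1.21e-05 at both Kyat3 and Csrnp1.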

How the results depend on the processing

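No paired analysis was made because no source used here pairs the mice. The mouse numbers in this text follow accession order and pair no mice. The titles mark no sets of libraries, and ranges of their library numbers were chosen here as a term, which pairs no mice. With that term, 177, 297, 263 and 265 members opened and 305, 396, 336 and 281 closed at 3, 8, 16 and 24 h. All 141 named calls stayed. Of 141 named peak and time pairs, compared under the alternatives in 2883 comparisons, 2848 kept their call, 35 lost it and 0 reversed. The alternatives with another distance limit, overlap rule or macrophage window changed only membership and reused the reported fit. Their 128, 141 and 132 comparisons could not lose a call. The pairs were also chosen for passing the test in these data, so the kept share is no independent measure of robustness. Lost calls were at Stat5a (3 and 24 h), Clec16a, Dbp and Irs1 (24 h), Mrnip and 2 Alb ends (8 h) and Lyve1 (16 h). Stat5a at 3 h lost its call without any 1 of 7 of the 8 mice, with adjusted p between 0.0509 and 0.153. Dbp at 24 h had an adjusted p of 0.0541 in DESeq2 and 0.053 in edgeR. The cause was not tested.

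With a mean of at least 30 required, which left 1201 members to test, closed members numbered 188 at 3 h and 179 at 24 h, when 222 opened, and the median log2 fold change was 0.01 at 8 h, 0.01 at 16 h and 0.08 at 24 h. After median centring, 179 members opened at 24 h, and the medians were -0.13, -0.11 and -0.04 at 8, 16 and 24 h. After quantile normalization, 175 opened at 24 h, with medians of -0.09 at 8 h and -0.03 at 24 h. A fit of only the 2 groups compared gave 148 opened and 216 closed at 16 h. In edgeR 134 opened at 24 h, with medians of -0.11, -0.12 and -0.11 at 8, 16 and 24 h, and in DESeq2 125 opened, with -0.12, -0.12 and -0.11. Over all tested peaks, edgeR called 5033 opened and 7178 closed at 24 h. Leaving out 1 mouse gave 138 to 185, 255 to 290, 183 to 299 and 198 to 239 opened members at 3, 8, 16 and 24 h, and 225 to 287, 338 to 376, 259 to 342 and 219 to 272 closed. It gave 356 to 527 members with unequal effects, 313 to 434 with variation in fed mice, and medians of -0.08 to -0.06, -0.06 to -0.02, -0.06 to -0.02 and 0.02 to 0.04.

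Normalized reads per library are scaled by the authors and hold no absolute level, so the balance of opening and closing is set by the scaling. The 388 tested members with a mean under 30 reads (24.4%) had a median SE of 0.24 on the log2 scale, and their smallest called changes were 0.43 to 0.49 in size over the 4 times. The other 1201 had a median SE of 0.17 and smallest called changes of 0.20 to 0.28.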
